A study of Homo sapiens with 6 samples.

Results

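The aminoacyl-tRNA synthetases are the enzymes that attach each amino acid to its transfer RNA. The genes described here were 37 members taken by symbol from the 61853 entries of a gene count table: 19 genes for cytosolic enzymes or their subunits, 16 for enzymes of mitochondria alone, and the scaffold proteins AIMP1 and AIMP2. All 37 had an entry and 35 held enough reads to be tested. RNA came from arcuate neurons, a hypothalamic neuron type, made in culture from the established human line H9 and collected on day 30 of differentiation, and from undifferentiated cells of the same embryonic stem cell line collected on day 0, with 3 libraries per day. On the way to day 30 the cells received sonic hedgehog protein, purmorphamine, SB431542 and LDN-193189, later DAPT with B-27, a ROCK inhibitor at replating, and finally BDNF with B-27, per the labels' protocols. The labels name no alleles, and nothing in them says whether libraries of 1 day were separate cultures, so p-values measure the spread between these libraries, which may be technical.

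A synthetase activates its amino acid with ATP and passes it to the matching transfer RNA, and the pairing it makes fixes which amino acid a codon stands for. Human cells carry a cytosolic set and a mitochondrial set, both encoded in the nucleus. GARS1 and KARS1 encode the glycine and lysine enzymes of both compartments, and mitochondria make their glutamine transfer RNA by an indirect route that starts with the glutamate enzyme EARS2. In the cytosol, several synthetases sit with AIMP1 and AIMP2 in the multisynthetase complex. Variants of several of these genes cause Charcot-Marie-Tooth neuropathy, a disease of long axons, and variants of many mitochondrial ones cause brain disease.

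Total counts per library were 5013643 to 12924842 on day 30 and 7178453 to 8794008 on day 0. Markers of the labelled cell types stood as labelled: all 6 neuronal markers and 5 of 6 hypothalamic markers were higher on day 30 (AGRP held too few reads to be tested), and all 5 pluripotency markers and all 4 cell division markers were higher on day 0. Day 30 replicate 3 stood apart in 5 mesenchymal markers, whose summed level was 2795 CPM (counts scaled to the total of the library) there, 103 and 340 CPM in the other day 30 libraries and 114 to 139 CPM in the day 0 libraries. Of other brain cell markers, SLC1A2, which neurons also express, held 238 of the 239 CPM that 5 astroglial markers summed to on day 30, and 5 oligodendroglial markers summed to 29.2 CPM in day 30 neurons and 135 CPM in day 0 cells, with MOG at 0 on both days. Without day 30 replicate 3, 29 members fell and 2 rose; the part of the other cells in the results was not tested.

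Most synthetase mRNAs were lower in day 30 neurons. Of the 35 tested members, 30 fell and 2 rose (edgeR quasi-likelihood test, Benjamini-Hochberg adjusted p under 0.05 over all genes). Of all 18040 genes tested, 76.6% were called, 36.8% as lower and 39.8% as higher. The median log2 change of day 30 over day 0 was −0.94 for the members, with quartiles of −1.48 and −0.53, beside a median of 0.08 for all tested genes. 15 members fell by 2-fold or more, a size that 24.7% of all tested genes reached downward. The CPM ranges of the days did not overlap for 34 of the 35 tested members, 30 with day 30 below and 4 with day 30 above. Among all tested genes, 79.4% had no overlap: 35.9% had day 30 below in this way and 43.5% above. Summed over the 35 synthetases, the mRNA level was 2715 ± 152 CPM in day 30 neurons and 5262 ± 153 CPM in day 0 cells (SD, n = 3 each). In bulk RNA, fewer cells that express a gene and less RNA per cell cannot be told apart, and every value is a share of the RNA in its library.

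**Figure D1:**
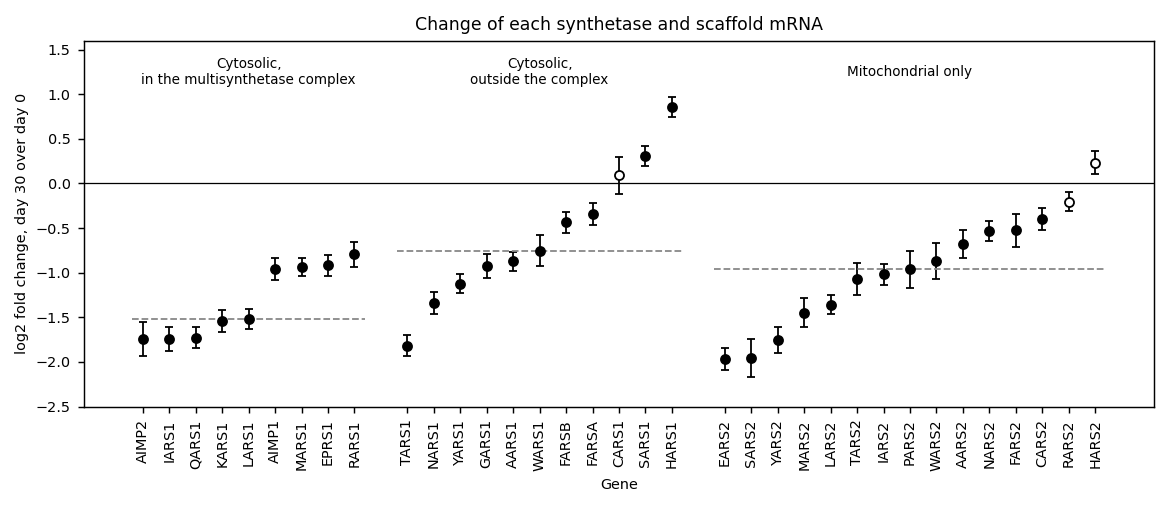
Log2 fold change of day 30 over day 0 (y axis) for the 35 tested members (x axis), with bars of 1 standard error and dashed lines at the median of each group. Filled points passed the test; the medians were −1.52 in the complex, −0.75 outside it and −0.96 for mitochondrial enzymes, and HARS1 and SARS1 rose.

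All 9 members of the multisynthetase complex in the list fell, with a median of −1.52. IARS1 (ENSG00000196305.19, chromosome 9, 92210207 to 92293756, hg38, minus strand), the isoleucine enzyme, was at 171, 209 and 240 CPM in day 30 neurons and at 624, 631 and 680 CPM in day 0 cells. It was the most abundant member by CPM in day 0 cells and its groups lay far apart. The log2 change was −1.74 ± 0.13 (SE), or 3.35-fold lower (edgeR adjusted p = 6.22e-07). LARS1, the leucine enzyme that also senses leucine for the growth kinase mTORC1, was at 165, 194 and 209 CPM in day 30 neurons and at 524, 505 and 493 CPM in day 0 cells. QARS1, the glutamine enzyme, was at 45.6, 47.1 and 58.8 CPM in day 30 neurons and at 154, 159 and 154 CPM in day 0 cells. Each day 30 library was below each day 0 library for both genes, with a log2 change of −1.52 ± 0.11 for LARS1 and −1.73 ± 0.12 for QARS1.

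KARS1, which encodes the lysine enzyme of cytosol and mitochondria, fell to 73.5 ± 2.58 CPM in day 30 neurons, against 200.3 ± 20.8 CPM in day 0 cells (SD, n = 3 each). The other enzymes of the complex changed less. EPRS1, a single protein that carries both the glutamate and the proline enzyme, had a log2 change of −0.92 ± 0.11, the methionine enzyme MARS1 −0.94 ± 0.10 and the arginine enzyme RARS1 −0.80 ± 0.14. The scaffold AIMP2 was at 9.70, 12.7 and 12.2 CPM in day 30 neurons and at 30.0, 35.4 and 42.5 CPM in day 0 cells, a log2 change of −1.74 ± 0.19. AIMP1, the other scaffold, had −0.95 ± 0.12. The scaffolds fell together with the enzymes they hold.

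Of the 11 tested cytosolic members outside the complex, 8 fell and 2 rose, with a median of −0.75. TARS1 (ENSG00000113407.14, chromosome 5, 33440696 to 33469539, plus strand), the threonine enzyme, was at 109, 137 and 128 CPM in day 30 neurons and at 419, 420 and 396 CPM in day 0 cells. Its log2 change of −1.82 ± 0.11, or 3.53-fold lower, was the lowest among cytosolic enzymes (edgeR adjusted p = 1.24e-07). The asparagine enzyme NARS1 was at 143, 141 and 146 CPM in day 30 neurons and at 308, 344 and 368 CPM in day 0 cells, a log2 change of −1.34 ± 0.12. YARS1, for tyrosine, had −1.12 ± 0.11, GARS1, for glycine, −0.93 ± 0.14 and AARS1, for alanine, −0.87 ± 0.10. In none of these genes did the libraries of the days overlap. WARS1, for tryptophan, ranged from 126 to 195 CPM among the day 0 libraries, a wide spread, and had −0.75 ± 0.17. The subunits of the phenylalanine enzyme, FARSA and FARSB, changed little, by −0.34 ± 0.12 and −0.44 ± 0.12. FARSA had an edgeR adjusted p of 0.0246 and missed the threshold when day 30 replicate 3 (0.0909), day 30 replicate 2 (0.0859) or day 0 replicate 3 (0.0559) was left out.

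HARS1 (ENSG00000170445.16, chromosome 5, 140673904 to 140691862, minus strand), the cytosolic histidine enzyme, went the other way. It was at 103, 108 and 115 CPM in day 30 neurons and at 52.7, 58.0 and 57.4 CPM in day 0 cells, so that every day 30 library was above every day 0 library. The log2 change was 0.86 ± 0.11, or 1.81-fold higher (edgeR adjusted p = 3.45e-05). SARS1 (ENSG00000031698.13, chromosome 1, 109213918 to 109238169, plus strand), the cytosolic serine enzyme, was at 210, 195 and 181 CPM in day 30 neurons and at 146, 145 and 152 CPM in day 0 cells. Its ranges did not overlap either, but the change was small, 0.31 ± 0.11 or 1.24-fold (edgeR adjusted p = 0.0296). Leaving out either of day 0 replicates 1 (0.119) and 2 (0.121) or day 30 replicates 1 (0.145) and 2 (0.074) made SARS1 miss the threshold, and over all alternatives the lowest adjusted p was 0.00306 and the highest 0.145.

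**Figure D2:**
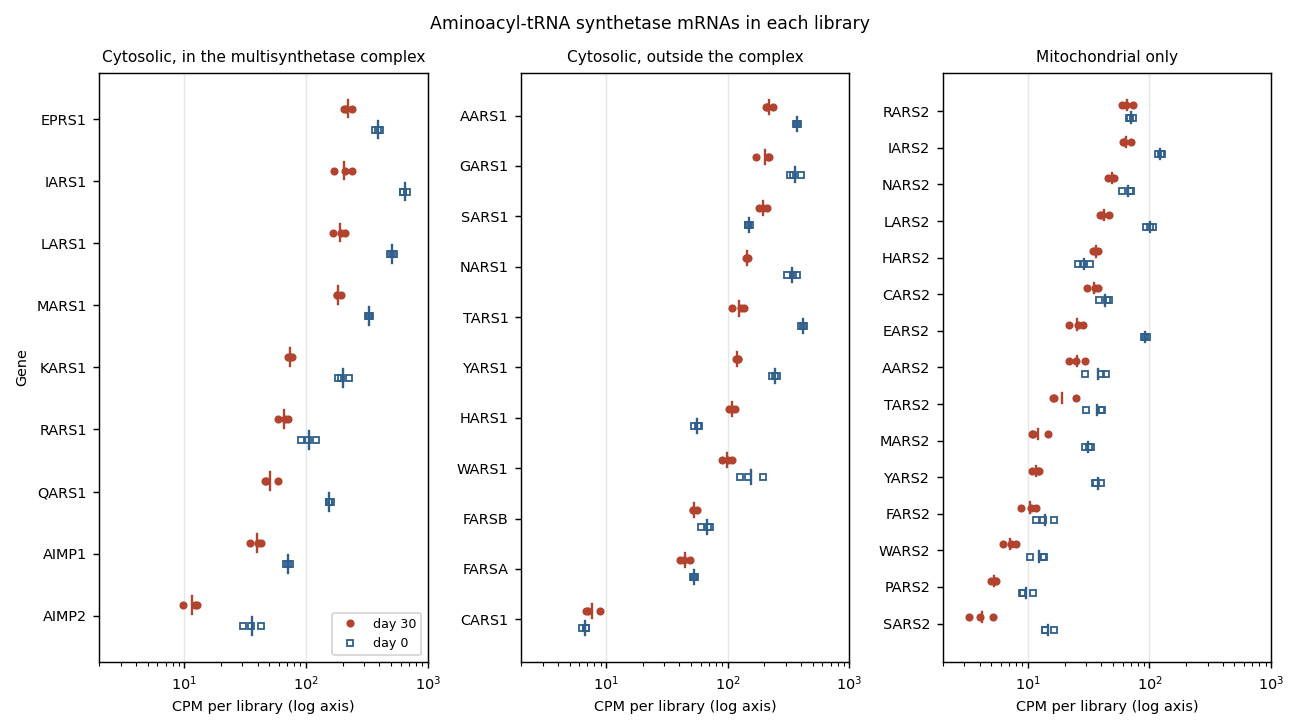
CPM in each library (x axis, log scale) of the 35 tested members (rows), in panels for the complex, the other cytosolic enzymes and the mitochondrial enzymes. Filled circles are the 3 day 30 libraries, open squares the 3 day 0 libraries and vertical ticks the means. Day 30 lies to the left in 30 rows and to the right for HARS1, SARS1, CARS1 and HARS2, and RARS2 overlaps.

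The mitochondrial enzymes were lower on day 30 as well. The test called 13 of 15 lower and 0 higher (median −0.96), beside 15 lower and 2 higher of 18 tested cytosolic genes (median −0.92). EARS2 (ENSG00000103356.18, chromosome 16, 23522014 to 23557731, minus strand), the glutamate enzyme, was at 21.8, 25.7 and 28.3 CPM in day 30 neurons and at 89.4, 92.6 and 94.6 CPM in day 0 cells. The groups lay far apart, with a log2 change of −1.97 ± 0.12, or 3.91-fold lower (edgeR adjusted p = 1.32e-07), the lowest of the members together with SARS2. SARS2, the mitochondrial serine enzyme, was at 4.03, 3.29 and 5.19 CPM in day 30 neurons and at 16.4, 13.8 and 13.8 CPM in day 0 cells, a log2 change of −1.96 ± 0.21. YARS2, for tyrosine, was at 12.2, 12.3 and 10.8 CPM in day 30 neurons and at 35.8, 36.6 and 40.3 CPM in day 0 cells, a log2 change of −1.75 ± 0.14. For each of these enzymes, all 3 day 30 libraries stood below the lowest day 0 library.

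MARS2, for methionine, had −1.45 ± 0.16, LARS2, for leucine, −1.36 ± 0.11, TARS2, for threonine, −1.07 ± 0.18 and IARS2, for isoleucine, −1.02 ± 0.11. Smaller falls were those of PARS2 for proline, WARS2 for tryptophan, AARS2 for alanine, NARS2 for asparagine, FARS2 for phenylalanine and CARS2 for cysteine, from −0.96 for PARS2 to −0.40 for CARS2. FARS2 (edgeR adjusted p = 0.0226) did not pass without day 0 replicate 1 (0.0565) or day 30 replicate 2 (0.117). RARS2, the arginine enzyme, was at 59.0, 63.7 and 73.0 CPM in day 30 neurons and at 73.3, 68.1 and 69.0 CPM in day 0 cells. It was the only tested member whose groups overlapped, with a log2 value of −0.20 ± 0.11 (edgeR adjusted p = 0.112). HARS2, the histidine enzyme, was at 34.3, 38.0 and 35.8 CPM in day 30 neurons and at 28.2, 32.5 and 25.9 CPM in day 0 cells, and the log2 value of 0.23 ± 0.13 missed the threshold (edgeR adjusted p = 0.126). It passed when libraries were scaled by total counts alone, at 0.33 (edgeR adjusted p = 0.04), and with a stricter filter on low counts, at 0.35 (edgeR adjusted p = 0.0269).

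The cytosolic and mitochondrial enzymes of each amino acid were then set side by side. Log2 ratios of counts, cytosolic over mitochondrial, were computed for 16 pairs, with the phenylalanine subunits and both activities of EPRS1 counted separately. The ratio was higher on day 30 with no overlap between libraries in 6 pairs and lower in 5, and overlapped in 5. The share without overlap among pairs of other genes was not computed. For single genes it was 79.4% of all tested, so a lack of overlap was common between these days. With 3 libraries a day the exact 2-sided permutation test cannot go below p = 0.1. All 11 pairs with no overlap were at that exact permutation value (Benjamini-Hochberg adjusted p = 0.145 over the 16 pairs), so none passed. The serine pair, SARS1 to SARS2, differed most between the days, by 2.22. Its log2 ratio was 5.55 ± 0.41 in day 30 neurons and 3.34 ± 0.16 in day 0 cells (SD, n = 3 each, exact permutation p = 0.1). Of SARS2 exon sequence, 46.2% also belongs to another gene on the same strand, and how reads were split between them was not tested.

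EPRS1 over EARS2 differed by 1.05, YARS1 over YARS2 by 0.65 and HARS1 over HARS2 by 0.63 toward the cytosolic enzyme, as did MARS1 over MARS2 by 0.54 and CARS1 over CARS2 by 0.50. NARS1 over NARS2 differed by −0.80, TARS1 over TARS2 by −0.76, IARS1 over IARS2 by −0.72 and RARS1 over RARS2 by −0.58, toward the mitochondrial enzyme, with LARS1 over LARS2 at −0.17. Near 0 were EPRS1 over PARS2 at 0.04 and FARSB over FARS2 at 0.08, both within the spread of the libraries. For RARS1 and RARS2 the log2 ratio was 0.00 ± 0.07 in day 30 neurons and 0.58 ± 0.25 in day 0 cells (exact permutation p = 0.1).

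**Figure D3:**
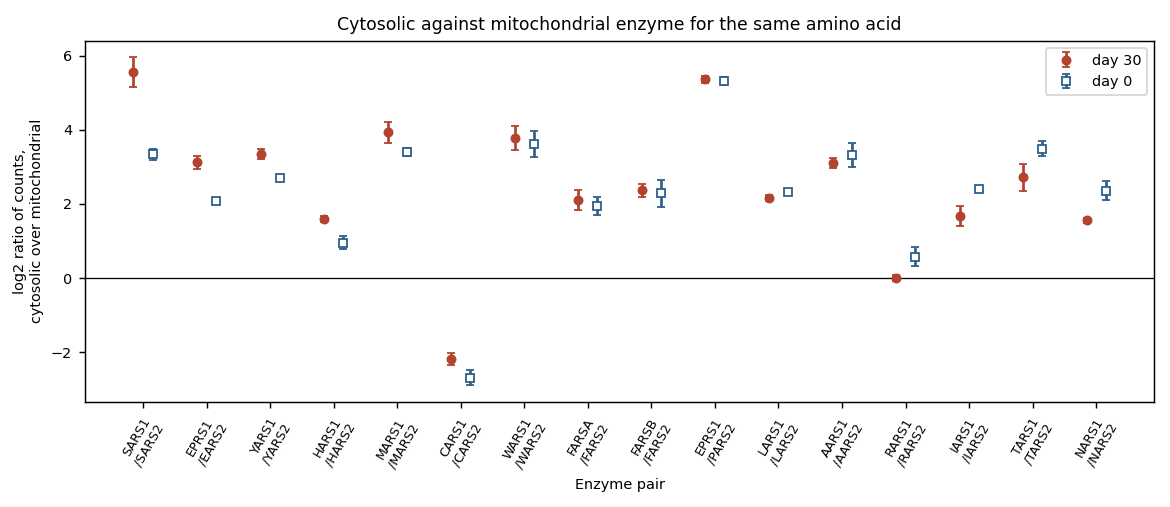
Log2 ratio of counts of the cytosolic over the mitochondrial enzyme (y axis) for 16 pairs (x axis), as means with bars of 1 SD over 3 libraries. Filled circles are day 30 and open squares day 0; the difference is most positive for SARS1 over SARS2 and most negative for NARS1 over NARS2.

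Levels between genes were compared as CPM per kilobase of annotated exon. The length merges all annotated exons of a gene and can exceed that of the transcript in use, which would lower the level. On day 30 the 18 tested cytosolic genes had a median level of 20.4 CPM per kilobase and the 15 mitochondrial genes 4.69. On day 0 these medians were 42.9 and 9.07. The order within the cytosolic set changed. SARS1 had the highest level on day 30, 50.9 ± 3.78 CPM per kilobase, followed by GARS1 at 48.4 ± 6.10 and AARS1 at 48.2 ± 3.42, and these 3 did not differ beyond their spread. On day 0 the highest were IARS1 at 87.2 ± 4.14, GARS1 at 85.9 ± 9.19, NARS1 at 83.1 ± 7.48 and AARS1 at 82.6 ± 1.42, which also lay within their spread of each other, and SARS1 stood at 38.6 ± 1.01. Among mitochondrial enzymes RARS2 was highest on day 30, at 25.6 ± 2.79 CPM per kilobase.

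The valine enzymes could not be followed, and the cytosolic cysteine enzyme held few reads. VARS2, the mitochondrial valine enzyme, had no reads in any library, which allows up to 0.109 CPM over the day 30 libraries and 0.126 CPM over the day 0 libraries, and VARS1, the cytosolic one, had 1 count on each day. Both genes lie in the MHC region of chromosome 6, VARS1 at 31777518 to 31795953 and VARS2 at 30908242 to 30926459. Of the 45 protein-coding neighbours within 200 kilobases of VARS1, 1 held enough reads to be tested, and of the 13 around VARS2 none did. CARS1, the cytosolic cysteine enzyme (chromosome 11, 3000922 to 3057613), was at 7.12, 6.89 and 8.98 CPM in day 30 neurons and at 6.83, 6.27 and 6.82 CPM in day 0 cells, a log2 value of 0.09 ± 0.21 (edgeR adjusted p = 0.699). Its level per length, 0.763 CPM per kilobase on day 30, was the lowest of all tested members, over a merged exon length of 10037 bases. By CPM alone, SARS2 at 4.17 and PARS2 at 5.26 were lower on day 30 than CARS1 at 7.66. Of the 9 protein-coding neighbours of CARS1, 3 were tested. Why few reads were counted in these regions was not tested.

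Several members share exon sequence with a neighbour on the other strand. The libraries were stranded, but the strand setting of the counting is not given, so reads of overlapping exons may have been counted for either gene. Some overlapping genes held few counts. ARHGAP9, which shares 519 bases with MARS1 on the other strand, held 29 counts on day 30 and 32 on day 0. An unnamed antisense gene that shares 385 bases with WARS1 held 0 on both days. How many reads were counted across strands was not tested. HARS1 and HARS2 start head to head and their annotated exons overlap by 437 bases, 5.56% of HARS1 exons. Other divergent pairs moved together or apart. SARS2 and MRPS12, a mitochondrial ribosomal protein gene, both fell, by 1.96 and 2.32 on the log2 scale. In contrast, KARS1 fell by 1.54 whereas TERF2IP, a telomere protein gene that shares 176 bases of exon with it, rose by 4.01 ± 0.17, with 244.9 ± 40.0 CPM in day 30 neurons and 14.3 ± 1.47 CPM in day 0 cells (SD, n = 3 each). In all, 11 members, HARS1 and HARS2 among them, had a protein-coding gene on the other strand whose 5′ end lay within 1000 bases. Among their partners, ING1 beside CARS2 fell by 0.75, LYRM4 beside FARS2 by 1.32 and ORC3, a subunit of the replication origin complex, beside RARS2 by 1.61. WDR25, beside WARS1, rose by 0.63. DDX19B beside AARS1, UBFD1 beside EARS2 and PMS2 beside AIMP2 did not pass. MARS1 shares 355 bases of exon with DDIT3, a stress-induced transcription factor gene on the other strand that rose by 2.52 ± 0.18 and held 799.5 counts on day 30 and 113 on day 0, while MARS1 held 5031 counts on day 30 and 7860.5 on day 0. The share of MARS1 reads that could come from it was not tested. Of SARS2 exon sequence, 46.2% also belongs to an unnamed protein-coding gene on the same strand, which fell by 1.61. That gene held 127 counts on day 30 and 318.5 on day 0, beside 107.5 and 347.5 for SARS2. AIMP2 shares 532 bases, 28.9% of its exons, with EIF2AK1, a stress kinase gene on the other strand that held 2226 counts on day 30 and 2438 on day 0, while AIMP2 held 319 counts on day 30 and 861 on day 0. AARS2 shares 235 bases with TMEM151B, which held 4055.5 counts on day 30 and 63.5 on day 0.

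Cytosolic synthetase genes are known targets of ATF4, the transcription factor of the integrated stress response, which binds the C/EBP-ATF response element. That element was searched as TGATGNAAN on both strands in RefSeq promoters, which span 250 bases before to 50 after the start, taking the first promoter listed for each gene. A promoter was found for 32 of the 37 members. The element was present in 6 of 16 cytosolic genes (37.5%) and 1 of 14 mitochondrial genes (7.14%), beside 3.67% of 27305 RefSeq promoters. The 7 matches are shown with the element in capitals, on the strand that reads TGATG, so that the bases beside the letters fixed by the search can be compared.
AARS1: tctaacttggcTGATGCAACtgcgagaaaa
CARS1: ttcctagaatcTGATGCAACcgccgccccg
IARS1: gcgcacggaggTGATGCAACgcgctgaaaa
MARS1: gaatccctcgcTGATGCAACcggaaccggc
NARS1: ctacgctctcTGATGCAACgccggaatcgc
TARS1: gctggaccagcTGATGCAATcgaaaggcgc
YARS2: tccacactgcTGATGGAAAaattaagttta

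They lie at chr16:70289675-70289704, chr11:3057407-3057436, chr9:92293692-92293721, chr12:57488053-57488082, chr18:57621803-57621832, chr5:33440956-33440985 and chr12:32756075-32756104, in the order shown, on GRCh38.p14. The strand is plus for AARS1, CARS1 and IARS1 and minus for the others. The match was centred 10 bases upstream of the start in IARS1 and 18 bases downstream in NARS1, with CARS1, MARS1 and TARS1 in between, and 184 bases upstream in AARS1 and 193 in YARS2. Of the 7 genes, 6 fell and CARS1 did not pass. The element was in 22.2% of the 27 promoters of members that fell, beside 21.9% of all 32. The 27 make up most of the 32, so these shares cannot differ much and nothing follows from their likeness. Neither gene that rose, HARS1 and SARS1, held the element in this window, which says only that these letters were not found there. CCAAT, a common promoter element, was in 17 of the 32 promoters (53.1%, beside 35.7% of all promoters). It was in 15 of the 27 promoters of members that fell (55.6%), and in neither that of HARS1 nor that of SARS1. EPRS1, GARS1 and KARS1, which fell, also had neither CCAAT nor the C/EBP-ATF response element in this window. The E-box CACGTG, which MYC proteins bind, was in the promoters of IARS1, CARS2, EARS2 and MARS2 (12.5% of members, beside 7.43% of all promoters). The NRF1 motif was in that of MARS2 (1.36% of all promoters) and the cyclic AMP response element TGACGTCA in that of AIMP2 (1.98% of all promoters). All were searched on both strands, and a match is a description of these letters only.

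Among 12 synthetases listed as reported ATF4 targets, 10 fell (83.3%) and SARS1 rose, with a median of −0.93. Of the 18 tested cytosolic members, which include these 12, the same share fell (83.3%), with a median of −0.92. ATF4 itself fell to 180.2 ± 11.9 CPM in day 30 neurons, against 361 ± 26.3 CPM in day 0 cells, a log2 change of −1.09 ± 0.12. Of 24 genes of the ATF4 pathway, 17 fell (70.8%, beside 36.8% of all tested genes) and 5 rose (20.8%, beside 39.8%). The quartiles of this pathway were −1.66 and −0.20. The largest fall was that of PSAT1, an enzyme of serine synthesis, at −3.71 ± 0.22, and PHGDH, the first enzyme of that route, had −3.25 ± 0.17. EIF2AK4, the kinase GCN2 that senses uncharged transfer RNA, fell by 1.84. The 5 that rose were DDIT3, with the largest rise at 2.52 ± 0.18, PPP1R15A, which ends the response, at 2.05, TRIB3 at 1.04, the kinase EIF2AK3 at 0.56 and ATF3 at 0.40 (edgeR adjusted p = 0.0485). ATF3 missed the threshold in 8 of 12 alternatives, among them without day 0 replicate 1 (0.115) or 2 (0.218) and without day 30 replicate 1 (0.0729) or 2 (0.208), which left 4 risers. The enzymes that make serine, glycine, proline and asparagine in this list (PSAT1, PHGDH, PSPH, SHMT2, ALDH18A1, PYCR1 and ASNS) all fell; this grouping was made after the values were seen.

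**Figure D4:**
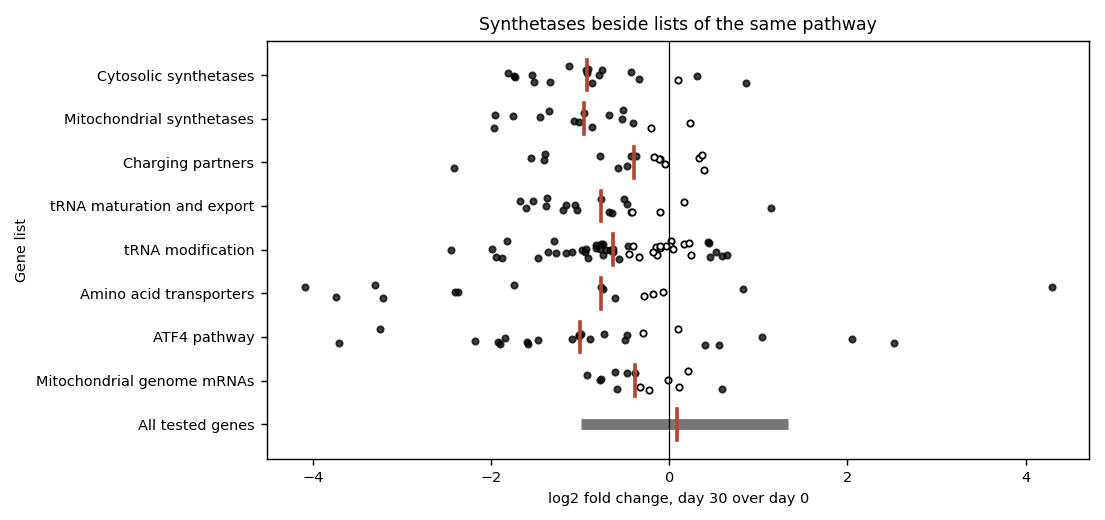
Log2 fold change of day 30 over day 0 (x axis) of tested genes in each list (rows), with filled points for genes that passed, open points for those that did not, and red ticks at medians. The bottom row gives the quartiles of all 18040 tested genes, −0.99 and 1.33, around a median of 0.08; the synthetase medians were −0.92 and −0.96.

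Genes that work beside the synthetases were lower for the most part. Of 16 charging partners, 9 fell (56.25%, beside 36.8% of all tested genes) and none rose (beside 39.8%), with a median of −0.40. Over the alternatives 7 to 9 fell, and 1 rose without day 30 replicate 3 or with total counts only and 2 with the stricter filter. EEF1E1, a scaffold of the multisynthetase complex, fell by 1.41 on the log2 scale. QRSL1, GATB and GATC form the amidotransferase that completes glutamine transfer RNA in mitochondria after EARS2. QRSL1 fell by 1.56 and GATB by 0.48, and GATC had 0.34 (edgeR adjusted p = 0.073). GATB (edgeR adjusted p = 0.033) missed the threshold without day 0 replicate 2 (0.069) or 3 (0.106) and without day 30 replicate 2 (0.0806) or 3 (0.115), whereas GATC passed without day 30 replicate 3 (0.00817).

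In transfer RNA maturation and export, 15 of 19 tested genes fell and 1 rose (median −0.77). SSB, the La protein that binds new transcripts of RNA polymerase III, fell by 1.68, and XPOT, the exporter of transfer RNA, was at 132 ± 16.9 CPM in day 30 neurons and 356 ± 33.7 CPM in day 0 cells (log2 change −1.53 ± 0.13). ELAC1 rose by 1.14 ± 0.25, whereas ELAC2, the RNase Z that trims the 3′ ends of transfer RNA precursors, fell by 1.39. TSEN34 had no reads in any library and could not be tested for a change. Why it held none was not tested. Of 48 tested transfer RNA modification genes, 27 fell (56.25%) and 6 rose (12.5%), a more mixed list with a median of −0.64. The pseudouridine synthase PUS7 fell most, by 2.45.

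Of 15 amino acid transporter genes, 10 fell (66.7%, beside 36.8% of all tested genes) and 2 rose (13.3%, beside 39.8%). Their median was −0.76. SLC7A5 and SLC3A2, which form the carrier of large neutral amino acids, fell by 2.40 and 1.75. SLC7A3, a carrier of basic amino acids, had the largest fall, −4.10 ± 0.14. SLC1A4, a carrier of serine and alanine, had the largest rise, to 143 ± 10.1 CPM in day 30 neurons, against 6.68 ± 3.23 CPM in day 0 cells, a log2 change of 4.30 ± 0.27. Of the 13 mRNAs of the mitochondrial genome, which the mitochondrial synthetases help translate, 7 fell (53.8%) and 1 rose (7.69%). Their median was −0.38, with MT-CO1 lowest at −0.92 and MT-ND5 higher at 0.59. Among 7 synthetases mutated in Charcot-Marie-Tooth neuropathy, 6 fell (85.7%) and HARS1 rose, with a median of −0.93. The share that fell was the same among all 35 tested members (85.7%, median −0.94).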

How the data were processed

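The authors deposited expected counts per gene, as the values show: they are not scaled, and 92.6% are whole while the rest hold fractions of a read. Per the labels' protocols, total RNA was depleted of ribosomal RNA and made into stranded libraries. The build hg38 and FastQC 0.11.9 stand in the list of tools and builds, per the submitters' processing notes. Aligner, counter, annotation and strand setting were not given in the sources used here. Because the plan assumed raw counts, fractions were rounded before testing. Columns of values not used numbered 0.

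Symbols came from a table of gene IDs, and 42139 of 61853 entries had one. Positions and merged exon lengths came from GENCODE release 29 on GRCh38 and covered 94.2% of entries. Promoters came from RefSeq on GRCh38.p14.

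Day 30 was compared with day 0 in R 4.3.3 with edgeR 4.0.16 (quasi-likelihood test, TMM scaling, filterByExpr) over 18040 genes. The biological coefficient of variation was 0.153, and tests are 2-sided. Standard errors are approximate, the absolute log2 change over the square root of F. CPM were computed here from total counts, whereas log2 changes also hold the TMM factors, which lower them by 0.09. The pair ratios used a prior of 0.5 counts. The alternatives were DESeq2 1.42.0, other scalings and filters, each library left out, a replicate block, and a prior of 2 counts for the ratios. The fit was tested on simulated data. Named genes were all 37 members and, in each other list, the passing genes with the largest rise and fall. Some genes that this rule names are not reported here. Other named genes, the neighbouring and overlapping genes and the promoter search were chosen after values were seen. The members and lists were chosen with earlier results of these data known.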

Additional observations from a re-analysis of the deposited data

How the results depend on the processing

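Over 12 alternatives, 30 of the 35 tested members kept their direction and their side of the threshold, and no member changed sign. The count of members higher, 2, was 1 with no filter on low counts, 3 with total counts only and 3 with the stricter filter, and 1 to 2 with 1 library left out; for cytosolic members it was 1 with no filter and 1 to 2 with 1 library left out. Mitochondrial members higher, 0, became 1 with total counts only and 1 with the stricter filter. Members lower, 30, were 27 to 30 over the alternatives and 28 to 30 with 1 library left out. SARS1, FARSA, CARS2, FARS2 and HARS2 were the members whose call moved; CARS2 missed the threshold under total counts (0.0519) and under the stricter filter (0.0572). Without day 30 replicate 3, the library high in mesenchymal markers, 29 members were lower and 2 higher.

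With the replicate block, 30 members were lower and 1 higher, and 1 cytosolic member was higher, since SARS1 did not pass (0.0735). Deviations of same-numbered libraries correlated by −0.05 to 0.07 and those of differently numbered libraries by −0.13 to 0.14. No pairing by number was seen, but so few libraries cannot exclude it. With 1 library left out the pair ratio differences ranged from −0.13 to 0.22 for FARSB over FARS2, from −0.041 to 0.32 for WARS1 over WARS2 and from −0.014 to 0.098 for EPRS1 over PARS2, which turned their signs; the number of pairs with no overlap was then 5 to 6 for lower ratios and 6 to 7 for higher ones. Scaling by total counts put the median of all genes at 0.17 in place of 0.08. Depth limits the low members most: the reads of SARS2 summed to 107.5 on day 30 and 347.5 on day 0.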

Other observations

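The transfer RNAs of the mitochondrial genome, which the mitochondrial synthetases charge, held few reads in these libraries. Their summed level was 82.5 ± 25.8 CPM on day 30 and 85.7 ± 8.89 CPM on day 0 (SD, n = 3 each). Of 17 with enough reads to be tested, 3 were higher (17.6%) and 3 lower (17.6%) on day 30 (edgeR, adjusted p under 0.05). Of all tested genes, 39.8% were called higher and 36.8% lower. The median log2 change of the 17 was 0.10. MT-TF, called lower (edgeR adjusted p = 0.0379), kept its call in only 2 of 12 alternatives. MT-TK, the lysine transfer RNA, was the most abundant and fell to 20.8 ± 7.55 CPM on day 30, against 30.1 ± 3.10 CPM on day 0. MT-TP, for proline, had the largest fall, −0.87 ± 0.22, and MT-TW, for tryptophan, the largest rise, 1.86 ± 0.67. MT-TK (edgeR adjusted p = 0.0432) missed the threshold when replicate 1 (0.0767) or 3 (0.0932) of day 0 or replicate 3 (0.0741) of day 30 was left out. MT-TW (edgeR adjusted p = 0.0253) missed it when replicate 1 (0.0699) or 3 (0.0744) of day 0 or replicate 2 (0.177) of day 30 was left out. Which lengths the library preparation kept was not found in the labels, and reads of longer precursors would be counted at these genes too.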
